A study of Caenorhabditis elegans with 3 samples.

Results

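The genes described here encode the hedgehog-related and patched-related proteins of Caenorhabditis elegans. They were chosen by name: every gene whose deposited symbol begins with wrt-, grd-, grl-, ptr- or ptc- was taken, whatever its level. This gave 63 genes of 15323 in the per-sample tables and of 19194 in the table of the whole series: 10 warthog (wrt), 13 groundhog (grd), 19 ground-like (grl), 19 patched-related (ptr) and 2 patched (ptc) genes. Poly-A RNA of the wild-type strain N2 had been sequenced directly by nanopore, strand by strand and without copying. The 3 libraries were made from embryos of mixed stages, from whole worms at the L1 stage, the first larval stage, and from whole young adults. There was 1 library per stage, and the labels give neither the number of animals in a library nor a treatment, transgene or mutation.

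In flies and vertebrates, secreted hedgehog proteins are bound by the receptor patched, a membrane protein related to sterol transporters, and this releases a signal that ends in Gli-type transcription factors. Nematodes lack a true hedgehog gene and the signal transducer smoothened, but carry large families of hedgehog-related proteins (warthog, groundhog and ground-like, each named for its amino-terminal domain) and of patched-related proteins. Some hedgehog-related proteins also have a Hog domain, the part that in hedgehog cuts the precursor and attaches cholesterol. Many of these genes are known from the epidermis, its seam cells and the molts, in which the cuticle is shed and remade.

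The libraries held 941707 (embryo), 1017061 (L1) and 1611049 (young adult) estimated reads. Folds against 0 reads were computed against a floor of 3 reads. This floor was 3.19, 2.95 and 1.86 reads per 1000000 library reads (RPM) in the same order. A gene with 0 reads could lie even above it, since the 95% interval of a 0 count reached 3.92, 3.63 and 2.29 RPM. Ribosomal protein genes took 11.1%, 33.5% and 28.2% of reads, again in that order, so shares of all other genes were set partly by them. Germline marker genes, led by gld-1, pgl-1 and rme-2, had joint levels of 375, 229 and 1610 RPM in embryo, L1 and young adult, and neuron markers, led by egl-3, ric-4 and snt-1, had 140, 814 and 37.9. Of the 828 L1 reads of the neuron markers 588 were of egl-3, and without it the joint levels were 127, 236 and 28.6. Intestine markers, led by ifb-2, vha-6 and act-5, had 548, 377 and 453, with none at 0. Without ifb-2 these levels were 272, 167 and 286, highest in the young adult library. The intestine markers went different ways. Reads were 5, 40 and 14 for ges-1, 94, 27 and 184 for act-5, and 45, 24 and 18 for elt-2. Intervals given here are 95% intervals that cover the counting of reads and no difference between animals or library preparations. Because each stage had 1 library, no stage could be tested against another and no p-value is given. In libraries from whole animals, fewer cells of a type and less RNA per cell cannot be told apart.

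In 3 of the 5 families, warthog, ground-like and patched-related, the joint level was highest in the embryo library and lowest in the young adult library, while the groundhog family ran the other way. The members together had 2309 embryo reads, 1047 L1 reads and 1267 young adult reads, which is 2452, 1029 and 786 RPM. Members with any reads numbered 51 in embryo, 58 in L1 and 36 in young adult. The joint read share of L1 was 0.420 of that of the embryo (interval 0.390 to 0.452). In the young adult library it was 0.764 of the L1 share (0.703 to 0.830) and 0.321 of the embryo share (0.299 to 0.344). With edgeR TMM factors, which scale libraries on the bulk of genes, these ratios were 0.769, 0.726 and 0.558.

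**Figure D1:**
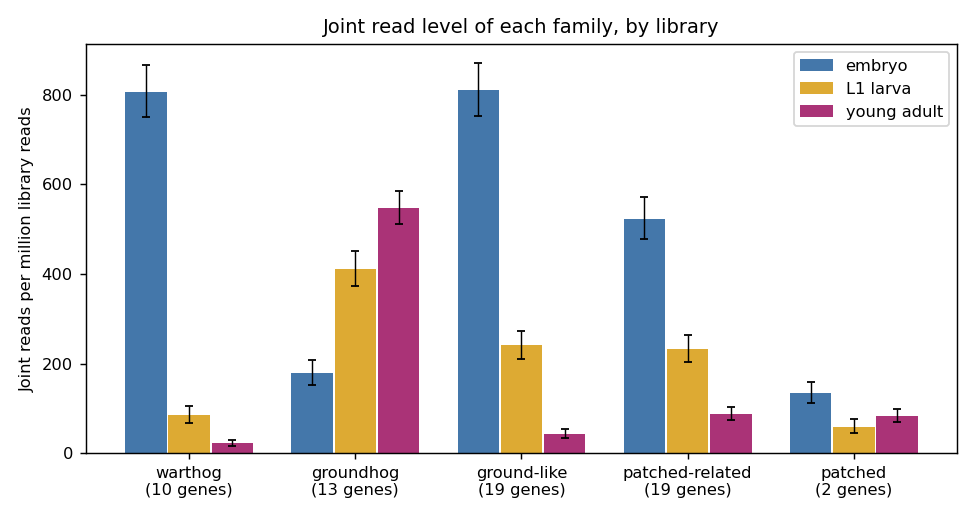
Joint level in reads per 1000000 library reads (RPM) of each family (bars from 0) in the embryo, L1 and young adult libraries, with 95% counting intervals. Warthog, ground-like and patched-related bars are tallest in the embryo library, at 806, 810 and 524, and the groundhog bar is tallest in the young adult library, at 547.

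A gene was compared between a pair of libraries when the pair held 20 or more of its reads. It was called higher or lower when even the closer end of the interval of its ratio lay 2-fold or more away from equal shares. Between embryo and L1, 31 members had enough reads; 5 were called higher in L1, 14 lower and 12 neither way. Over all 8382 genes with enough reads, 13.4% were called higher and 33.0% lower, and the median log2 ratio was -1.14 against -1.39 for the 31 members. With TMM factors 6 members were called higher and 9 lower, against 18.8% and 13.5% of all genes, and the median of all genes moved to -0.27.

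Between L1 and young adult, 22 members had enough reads; 1 was called higher in young adults and 8 lower. Of 8043 genes, 14.5% were called higher and 14.2% lower, with a median log2 ratio of 0.32 against -1.26 for the 22 members. TMM factors gave 1 member higher and 8 lower, against 13.1% and 14.9% of all genes. Between embryo and young adult, 25 members had enough reads; 2 were called higher in young adults and 16 lower. Of 8636 genes, 13.2% were called higher and 29.3% lower, with a median log2 ratio of -0.71 against -3.33 for the 25 members. TMM factors gave 3 members higher and 14 lower, against 19.6% and 17.3% of all genes. A member read mostly in the embryo entered these counts through its embryo reads, so the counts describe members with enough reads and not the families whole.

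**Figure D2:**
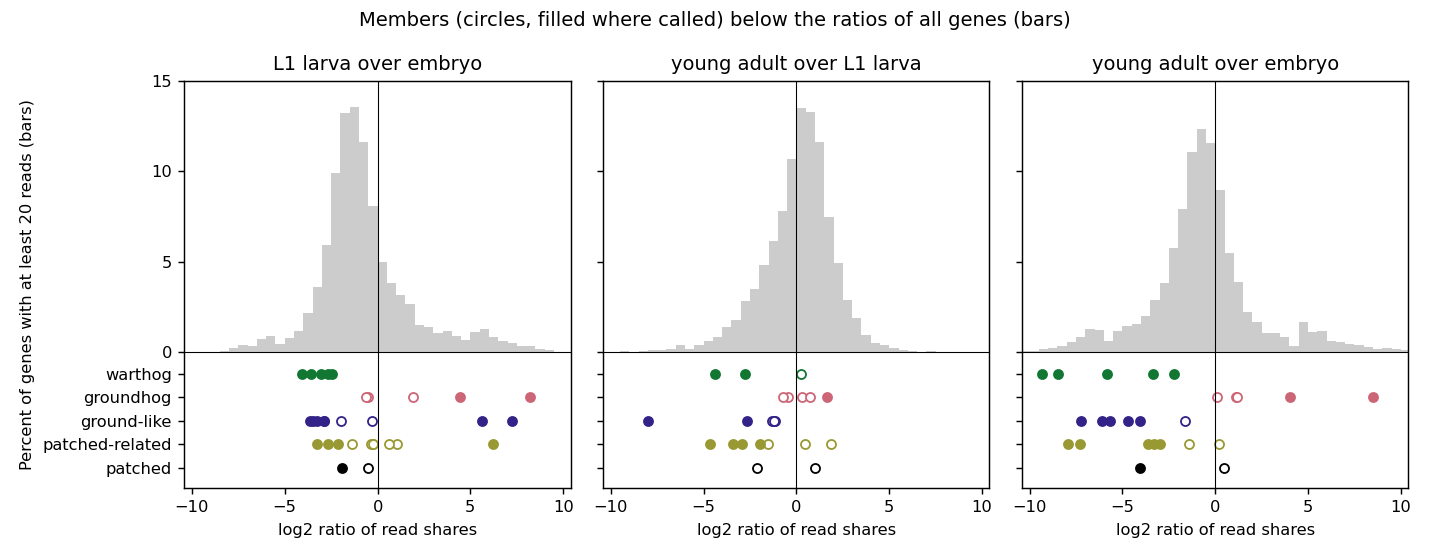
Log2 ratios of read shares for each pair of libraries. Grey bars give the percentage of all genes with at least 20 reads in bins of 0.5, and circles below give the members by family, filled where called. Warthog circles lie to the left of 0 in the comparisons with the embryo, and the filled groundhog circles lie to the right in all 3 panels.

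Among the ligand-type genes, the warthog family was read mainly in the embryo library. Its 10 members together had 759 embryo reads, 87 L1 reads and 36 young adult reads, or 806, 85.5 and 22.3 RPM. The joint share was 9.42-fold lower in L1 (7.54 to 11.9) and 36.1-fold lower in young adults (25.8 to 51.9) than in embryos. With TMM factors these folds were 5.15 (4.12 to 6.50) and 20.7 (14.8 to 29.8). All 5 warthog genes with enough reads were called lower in both comparisons with the embryo, against 33.0% and 29.3% of all genes. With TMM factors 3 of 5 were called lower in L1 and 4 of 5 in young adults, against 13.5% and 17.3%.

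The gene wrt-1 (ZK1290.12; chromosome II, 7530996 to 7533246, plus strand, WBcel235) had 307 embryo reads, 19 L1 reads and 1 young adult read. Nearly all of its reads were embryonic. Its share was 17.5-fold lower in L1 (10.98 to 29.4) and 525-fold lower in young adults (93.6 to 20811), the last resting on 1 read. Its neighbour wrt-10 (ZK1290.8; chromosome II, 7533262 to 7534563, minus strand), whose deposited description places it in the intestine, had 150, 19 and 4 reads in embryo, L1 and young adult. The annotated ends of these genes face each other with 15 bases between them, and how reads at this boundary were assigned is not given in the sources used here. For wrt-10 the L1 share was 8.53-fold lower (5.27 to 14.6) and the young adult share 64.2-fold lower (24.5 to 239) than the embryo share. Between L1 and young adult, wrt-1 was 30.1-fold lower (4.78 to 1251) and wrt-10 7.52-fold lower (2.50 to 30.4), both called.

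The seam and hypodermal gene wrt-2 (F52E4.6; chromosome X, 3092395 to 3094349, minus strand) had 185 embryo reads, 16 L1 reads and 0 young adult reads. It was 12.5-fold lower in L1 (7.49 to 22.3). In young adults it was 106-fold lower, counted against 3 reads there, and the interval began at 84.9-fold. Of the less-read members, wrt-5, described as needed for the integrity of the hypodermis, had 63, 12 and 23 reads. Its lowest value was thus in the L1 library, and its ratio of young adult to L1 of 1.21 (0.578 to 2.67) was called neither way. Against the embryo it was 5.67-fold lower in L1 (3.03 to 11.6) and 4.69-fold lower in young adults (2.87 to 7.92), and neither call held with TMM factors. The gene wrt-6, described in glia, seam and hypodermis, had 26, 4 and 4 reads. It was 7.02-fold lower in L1 (2.44 to 27.7), a call lost with TMM factors, and 11.1-fold lower in young adults (3.86 to 43.8).

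Markers of the hypodermis also had their highest joint level in the embryo library. The 6 hypodermis markers found of 7 listed, led by lin-26, dpy-7 and elt-1, had joint levels of 710 RPM in embryo, 170 in L1 and 120 in young adult. The later levels rested largely on lin-26, with 342, 123 and 182 reads, and without it the joint levels were 347, 49.2 and 6.83. All 4 hypodermis markers with enough reads were called lower in both comparisons with the embryo, or 2 and 3 of 4 with TMM factors. Between L1 and young adult, 0 of the 2 with enough reads were called. In the young adult library dpy-7 and nhr-25 were at 0, and in the embryo library rol-6 was at 0. The 2 seam markers found, scm-1 and ceh-16, had 114, 29.5 and 27.3 RPM, and none was at 0. They differed, with 73, 25 and 43 reads for scm-1, called in no pair, and 34, 5 and 1 for ceh-16. The ceh-16 share was 7.34-fold lower in L1 than in embryo (2.86 to 24.1), a call lost with TMM factors. In young adults it was 58.2-fold lower than in embryos (9.76 to 2364), resting on 1 read. The part of these cell types in the warthog result was not tested.

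**Figure D3:**
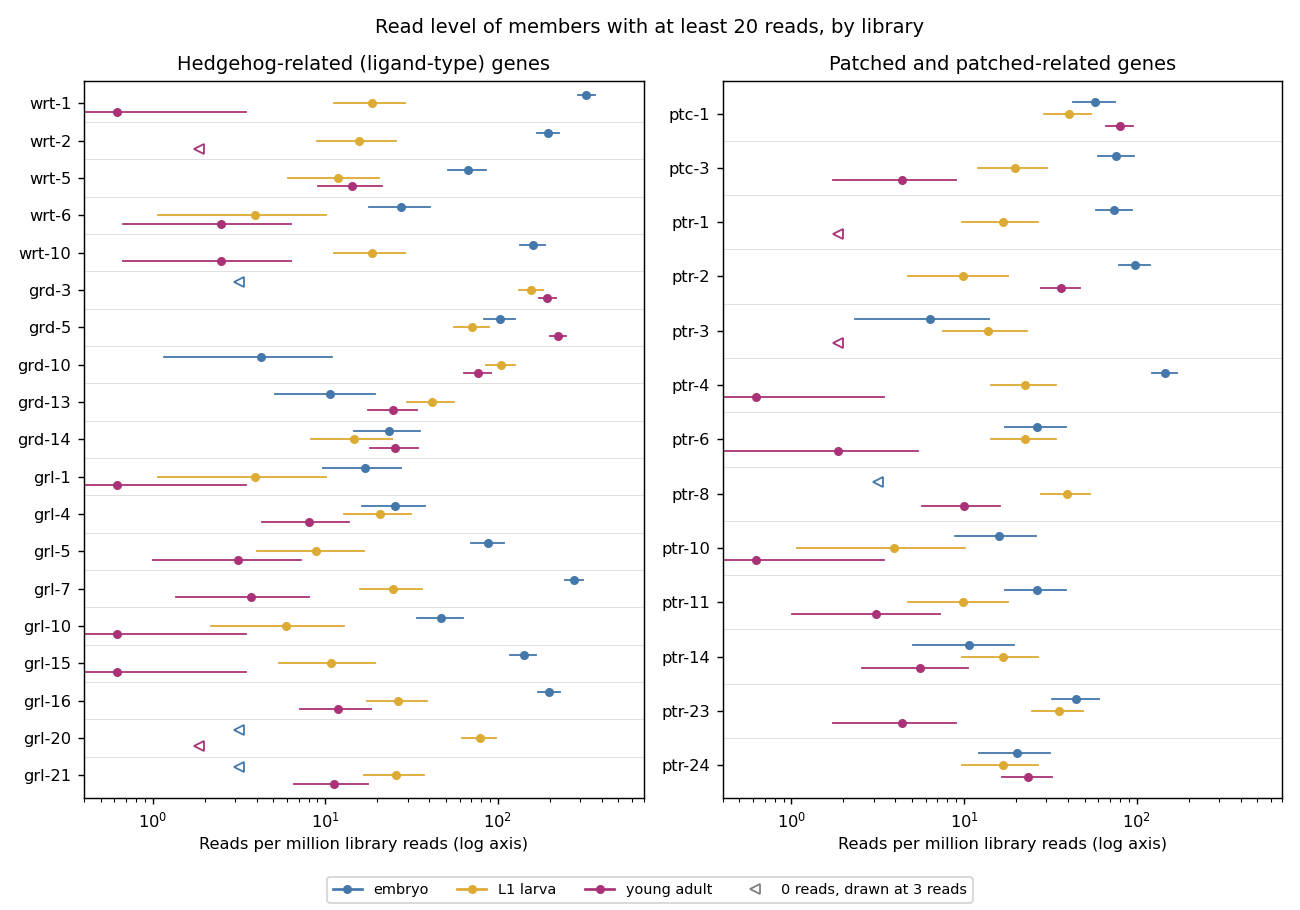
Levels in reads per 1000000 library reads (RPM, log axis) of the 32 members with 20 or more reads over the 3 libraries; points are single libraries and lines 95% counting intervals. Open triangles mark 0 reads, drawn at the level of 3 reads: the embryo for grd-3, grl-20, grl-21 and ptr-8, and the young adult for wrt-2, grl-20, ptr-1 and ptr-3.

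The groundhog family was the one with a higher joint level after hatching. Its 13 members had 168 embryo, 418 L1 and 882 young adult reads, or 178, 411 and 547 RPM. The joint share was 2.30-fold higher in L1 (1.92 to 2.77) and 3.07-fold higher in young adults (2.60 to 3.64) than in embryos. TMM factors made these folds 4.22 (3.52 to 5.08) and 5.34 (4.52 to 6.34). Of 5 members with enough reads, 2 were called higher and 0 lower in either comparison with the embryo. Over all genes 13.4% were called higher in L1 and 13.2% in young adults. With TMM factors these counts were 3 higher and 0 lower, against 18.8% and 19.6% of all genes called higher. The joint rise rested on few members. Of the L1 reads grd-3 had 159 and grd-10 106, and of the young adult reads grd-5 had 360 and grd-3 312. In L1, grd-5 and grd-14 had fewer reads than in embryos, 72 against 97 and 15 against 22. The 8 members with under 20 reads had 35, 24 and 6 reads together in embryo, L1 and young adult.

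The gene grd-3 (W05E7.1; chromosome IV, 3439655 to 3440453, plus strand), described in adult seam cells, had 0 embryo reads, 159 L1 reads and 312 young adult reads. Its share was 49.1-fold higher in L1 and 60.8-fold higher in young adults, each counted against 3 reads in the embryo library. The intervals of these ratios began at 39.4-fold and 49.1-fold. It was read heavily in both later libraries, and the ratio of young adult to L1 of 1.24 (1.02 to 1.51) was called neither way. The seam gene grd-10 (F09D12.1; chromosome IV, 3441055 to 3441841, plus strand) had 4, 106 and 123 reads in embryo, L1 and young adult. It too was read almost entirely after hatching, 24.5-fold higher in L1 (9.31 to 91.7) and 17.97-fold higher in young adults (6.84 to 67.0) than in embryos. Between the later libraries its ratio of young adult to L1 was 0.733 (0.560 to 0.959), called neither way.

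These genes are neighbours. On chromosome IV the genes grd-13, grd-3 and grd-10 follow each other on the plus strand from 3438312 to 3441841, with 147 bases between the first pair and 601 between the second. The gene grd-13 (W05E7.3), described in the posterior intestine and seam, had 10, 42 and 40 reads. It is named here for its place, after its values were seen. Its L1 share was 3.89-fold the embryo share (1.92 to 8.69), called neither way. All 3 neighbours thus had their lowest read count in the embryo library, and TMM factors called grd-13 higher in L1.

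The gene grd-5 (F41E6.2; chromosome V, 8619032 to 8619870, plus strand), described in adult seam cells like grd-3, had 97 embryo reads, 72 L1 reads and 360 young adult reads. Unlike grd-3 it was read in every library. Its young adult share was 3.16-fold the L1 share (2.44 to 4.12), the sole member called higher between these libraries. Against the embryo, the young adult share was 2.17-fold higher (1.73 to 2.74), which was not called by library totals but was with TMM factors, DESeq2 size factors or totals without ribosomal protein genes. The L1 share was 0.687 of the embryo share (0.499 to 0.942), a log2 ratio of -0.54 that became 0.33 with TMM factors. As the member with most reads, grd-5 weighed on the joint values, and without it the joint ratio of young adult to L1 was 0.587 rather than 0.764.

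Ground-like genes were split between embryo and L1. Their 19 members had 763, 245 and 70 reads, or 810, 241 and 43.5 RPM in embryo, L1 and young adult. The joint share was 3.36-fold lower in L1 (2.91 to 3.90) and 18.6-fold lower in young adults (14.6 to 24.2) than in embryos. By TMM factors the folds were 1.84 (1.59 to 2.13) and 10.7 (8.38 to 13.9). Of 9 with enough reads, 5 were called lower and 2 higher in L1 against embryo (33.0% and 13.4% of all genes). Against embryo in young adults, 5 of 6 were called lower and 0 higher (29.3% and 13.2%). TMM factors left 4 lower and 2 higher of 9 (13.5% and 18.8%), and 5 lower of 6 (17.3%).

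On the embryonic side, grl-7 (T02E9.2; chromosome V, 11344828 to 11347012, minus strand), described in intestine, hypodermis and seam, had 260, 25 and 6 reads. It was 11.2-fold lower in L1 (7.44 to 17.7) and 74.1-fold lower in young adults (33.6 to 204), and 6.60-fold lower in young adults than in L1 (2.64 to 19.7). The gene grl-16 (Y65B4BR.6; chromosome I, 572173 to 575120, minus strand) had 187, 27 and 19 reads. It was 7.48-fold lower in L1 (4.98 to 11.7) and 16.8-fold lower in young adults (10.48 to 28.6). Likewise, grl-15 (Y75B8A.20; chromosome III, 12232632 to 12236014, minus strand), described in the vulva and larval hypodermis, had 133, 11 and 1 reads. Its share was 13.1-fold lower in L1 (7.07 to 26.8) and 228-fold lower in young adults (40.1 to 9054). With fewer reads, grl-5 had 83, 9 and 5 and was 9.96-fold lower in L1 (5.001 to 22.5) and 28.4-fold lower in young adults (11.7 to 89.8). The gene grl-10 had 44, 6 and 1 reads and was 7.92-fold lower in L1 (3.36 to 22.7), a call lost with TMM factors, and 75.3-fold lower in young adults (12.8 to 3040).

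On the larval side, grl-20 (C23H5.9; chromosome IV, 2126136 to 2128861, minus strand) had 0 embryo reads, 80 L1 reads and 0 young adult reads. All of its reads thus came from the L1 library. Against 3 reads, its L1 share was 24.7-fold that of the embryo and 42.2-fold that of the young adult. The intervals began at 19.6-fold and 33.6-fold. The gene grl-21 (ZC168.5), described in the arcade cells of the mouth and in hypodermis, had 0, 26 and 18 reads. It was 8.02-fold higher in L1 than in embryo, counted against 3 reads (interval from 6.07). Its ratio of young adult to L1 of 0.437 (0.226 to 0.828) was called neither way. Pharynx markers, led by tnc-2, myo-1 and myo-2, had joint levels of 201, 517 and 145 RPM in embryo, L1 and young adult, with ceh-22 at 0 in the young adult library. These 3 had more L1 than embryo reads, while pha-4, with 31, 4 and 2 reads, was called lower in L1 by library totals and ceh-22 had 25, 8 and 0. Glia markers, led by vap-1, pros-1 and ztf-16, had 126, 112 and 19.9, with kcc-3 at 0 in the young adult library. The glia markers went opposite ways, since vap-1 had 3, 80 and 17 reads and the other 6 together 116, 34 and 15. Their part in the levels of these genes was not tested.

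Of the receptor-type genes, patched-related members together were highest in the embryo library, with calls from embryo to L1 about as frequent as over all genes. The 19 genes had 493, 236 and 143 reads, or 524, 232 and 88.8 RPM in embryo, L1 and young adult. The joint share was 2.26-fold lower in L1 (1.93 to 2.65) and 5.90-fold lower in young adults (4.89 to 7.16) than in embryos, or 1.23-fold (1.05 to 1.45) and 3.39-fold (2.81 to 4.11) lower with TMM factors. Of 10 with enough reads, 3 were called lower and 1 higher in L1 against embryo, shares close to the 33.0% lower and 13.4% higher of all genes. Their median log2 ratio was -0.30, against -1.14 for all genes, and with TMM factors 0.57 against -0.27. Between L1 and young adult, 4 of 7 were called lower and 0 higher (14.2% and 14.5% of all genes). Between embryo and young adult 5 of 7 were called lower and 0 higher (29.3% and 13.2%). TMM factors gave 2 lower and 1 higher of 10 (13.5% and 18.8%), 4 lower of 7 (14.9%) and 4 lower of 7 (17.3%).

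The gene ptr-4 (C45B2.7; chromosome X, 6060758 to 6065986, minus strand), described as strongly needed for the molt to adult, had 137 embryo reads, 23 L1 reads and 1 young adult read. Its share dropped at each step, 6.43-fold lower in L1 than in embryo (4.12 to 10.49) and 36.4-fold lower in young adults than in L1 (5.92 to 1501). The gene ptr-2 (C32E8.8; chromosome I, 3789309 to 3792797, minus strand), described in division of somatic cells, had 92, 10 and 59 reads. It was lowest in L1, 9.94-fold below the embryo (5.17 to 21.4). The young adult share was 3.72-fold the L1 share (1.89 to 8.17), called neither way, and 0.375 of the embryo share (0.266 to 0.525), also called neither way.

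In ptr-1, needed for molting together with other patched-related genes, 70 embryo, 17 L1 and 0 young adult reads were counted. It was 4.45-fold lower in L1 (2.59 to 8.06), a call lost with TMM factors. In young adults it was 39.9-fold lower than in embryos, counted against 3 reads (interval from 31.6). In ptr-8, weakly needed for molting, the order differed, with 0 embryo, 40 L1 and 16 young adult reads. It was 12.3-fold higher in L1 than in embryo, counted against 3 reads (interval from 9.58). In young adults it was 3.96-fold lower than in L1 (2.17 to 7.57).

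For ptr-6 and ptr-23, embryo and L1 did not differ beyond their counting intervals, and young adults were lower. The gene ptr-6 had 25, 23 and 3 reads and was 12.1-fold lower in young adults than in L1 (3.67 to 63.2). The gene ptr-23, described in molting and in the response to osmotic stress, had 42, 36 and 7 reads and was 8.15-fold lower (3.58 to 21.7). Their ratios of L1 to embryo were 0.852 (0.462 to 1.56) and 0.794 (0.494 to 1.27), and both turned above 1 with TMM factors, at log2 ratios of 0.64 and 0.54. The gene ptr-11 had 25, 10 and 5 reads and was 8.55-fold lower in young adults than in embryos (3.22 to 28.6), a call lost with TMM factors.

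The patched genes, both close relatives of the fly receptor gene, had different orders. Together they had 126, 61 and 136 reads, or 134, 60.0 and 84.4 RPM, in embryo, L1 and young adult. Their joint share in young adults was 0.631 of that in embryos (0.491 to 0.810) by library totals and 1.10 with TMM factors (0.855 to 1.41). The gene ptc-1 (ZK675.1; chromosome II, 7893222 to 7900515, plus strand), needed for division of germ cells, had 54 embryo, 41 L1 and 129 young adult reads, or 57.3 (43.1 to 74.8), 40.3 (28.9 to 54.7) and 80.1 (66.9 to 95.1) RPM. The young adult value was the highest and its interval overlapped that of the embryo. The ratio of young adult to L1 was 1.99 (1.39 to 2.90) and that of young adult to embryo 1.40 (1.01 to 1.96), both called neither way. The L1 to embryo ratio of 0.703 (0.457 to 1.07) was called neither way and turned above 1 with TMM factors, at a log2 ratio of 0.37. Germline markers, none of the 7 at 0 in any library, also had their highest joint level in the young adult library. Of 6 with enough reads, 4 were called higher in young adults than in embryos (13.2% of all genes) and 0 lower (29.3%). For htp-3 and cpb-1 the young adult share was below the embryo share, at ratios of 0.655 and 0.409, neither of them called. The part of the germline markers in the ptc-1 levels was not tested.

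The gene ptc-3 (Y110A2AL.8; chromosome II, 2845412 to 2852593, minus strand), described as strongly needed for early larval molts, had 72, 20 and 7 reads. It was 3.89-fold lower in L1 (2.34 to 6.74), a call lost with TMM factors and with totals that left out ribosomal protein genes. In young adults it was 17.6-fold lower than in embryos (8.12 to 45.3). Against L1 it was 4.53-fold lower in young adults (1.84 to 12.7), called neither way.

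Another 8 members had 20 to 99 reads and were called in no pair of libraries. They are given here for completeness, in the order embryo, L1 and young adult. Reads were 22, 15 and 41 for grd-14, 24, 21 and 13 for grl-4 and 16, 4 and 1 for grl-1. The patched-related genes ptr-3, ptr-10 and ptr-14 had 6, 14 and 0, 15, 4 and 1, and 10, 17 and 9 reads. The last patched-related gene, ptr-24, had 19, 17 and 38 reads, and grd-13 was given above. Their highest read counts fell in each of the 3 libraries, and none was separated from the others by the call rule.

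The remaining 31 members had 1 to 19 reads over the 3 libraries, too few to place any of them firmly. Together they had 131 embryo, 102 L1 and 20 young adult reads. Of these 31 genes, 23 had embryo reads, 26 had L1 reads and 8 had young adult reads. They include 8 groundhog, 10 ground-like, 5 warthog and 8 patched-related genes, and no patched gene. The 32 better-read members were also placed by the library with the highest read share, whether or not the difference was called. They were highest in the embryo in 20 cases, in L1 in 7 and in young adults in 5. This tally was not made over all genes, so whether it sets these families apart was not tested. By library totals, the median log2 ratio of all genes against the embryo was -1.14 in L1 and -0.71 in young adults. With TMM factors these medians were -0.27 and 0.09. All 5 warthog genes were highest in the embryo, the 5 groundhog genes in L1 (2) or young adults (3), and the 9 ground-like genes in the embryo (7) or L1 (2). Of 11 patched-related genes, 7 were highest in the embryo, 3 in L1 and 1 in young adults. With TMM factors, grl-4, ptr-6 and ptr-23 went from embryo to L1, which gave 17, 10 and 5 genes in all and 5, 5 and 1 patched-related genes.

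A Hog domain is named in the deposited descriptions of 7 members, grd-1, grd-2, grd-11, wrt-4, wrt-6, wrt-7 and wrt-8, with 58 embryo, 16 L1 and 6 young adult reads in all. The highest single value among them was 26 embryo reads, for wrt-6. The gene wrt-1 carried no description in the deposited tables and could not be placed by this rule, so these totals leave out its 307 embryo reads whether or not it belongs with them. Descriptions of 9 members mention seam cells, and these had joint levels of 688, 436 and 541 RPM in embryo, L1 and young adult. Their members were not of one kind, since grl-7 and wrt-2 were read mostly in embryos, and grd-3 and grd-10 after hatching.

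Positions were uneven between the chromosomes. Chromosome V held 22 of the 63 members (34.9%), against 20.3% of the 15268 genes of the per-sample tables with an annotated position, and chromosome III held 3 (4.76%, against 15.1%). Of the 22 on chromosome V, 18 were ligand-type genes. Besides the groundhog trio and the wrt-1 pair, grd-14 and grd-4 on chromosome X and grl-9 and grl-8 on chromosome V lay within 1000 bases of each other, 184 and 136 bases apart. Their values were low, with 22, 15 and 41 reads for grd-14 and 0, 12 and 5 for grd-4, and with 0, 6 and 0 for grl-9 and 1, 1 and 5 for grl-8.

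Transcript lengths differed in their medians, with ranges that overlapped. The median annotated transcript was 766 bases for groundhog, 972 for ground-like and 1788 for warthog genes, against 2965 for patched-related and 4719.5 for patched genes. The range of groundhog genes, 524 to 3817 bases, took in that of patched-related genes, 2606 to 3486. Counts given here are reads and are not divided by length, so read counts were compared between libraries for the same gene and not between genes. The deposited table split the members into 632 isoform rows, of which 66 bear the name of an annotated transcript and the rest a read identifier. Annotated rows held 16.8% of member reads, against 17.0% over all genes. The percentage was 29.6 for warthog, 24.6 for ground-like, 13.5 for patched, 9.80 for groundhog and 7.31 for patched-related genes. For several members, among them grd-3, grd-10, grd-13, grl-10, grl-20, grl-21 and ptr-4, no row carried an annotated transcript name.

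The leading isoform was mostly the same between libraries. It could be compared for 9 genes between L1 and embryo, 5 between young adult and L1, and 5 between young adult and embryo. In 7, 4 and 4 of these genes the same row led in both libraries. In grd-3, for example, the leading row held 145 of 159 L1 reads (91.2%, 85.7 to 95.1) and 277 of 312 young adult reads (88.8%, 84.7 to 92.1). In grd-10 it held 65 of 106 L1 reads (61.3%, 51.4 to 70.6) and 96 of 123 young adult reads (78.0%, 69.7 to 85.0), with intervals that just overlapped.

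The gene grl-16 was the exception, the one gene in these comparisons with intervals apart. Its annotated transcripts a and b share 4 exons and differ in exon 3, which ends at 573893 in transcript a and at 574073 in transcript b, counted on the plus strand of chromosome I. Both start this exon at 573640, so it has 254 bases in transcript a and 434 in transcript b, a difference of 180 bases. Transcript b took 1 of 187 embryo reads (0.535%, exact binomial interval 0.0135 to 2.94), 12 of 27 L1 reads (44.4%, 25.5 to 64.7) and 17 of 19 young adult reads (89.5%, 66.9 to 98.7). Transcript a took 60 of 187 embryo reads (32.1%, 25.5 to 39.3), 4 of 27 L1 reads (14.8%, 4.19 to 33.7) and 0 of 19 young adult reads, which allows up to 17.6%. Transcript b thus held the larger part of grl-16 reads in young adults and almost none in embryos. The young adult library, with 19 reads, fell 1 short of the read minimum for the comparison of leading isoforms, and its values stand as a description. How the authors divided reads between isoform rows is not given in the sources used here, and a division made on pooled reads would alter such shares.

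**Figure D4:**
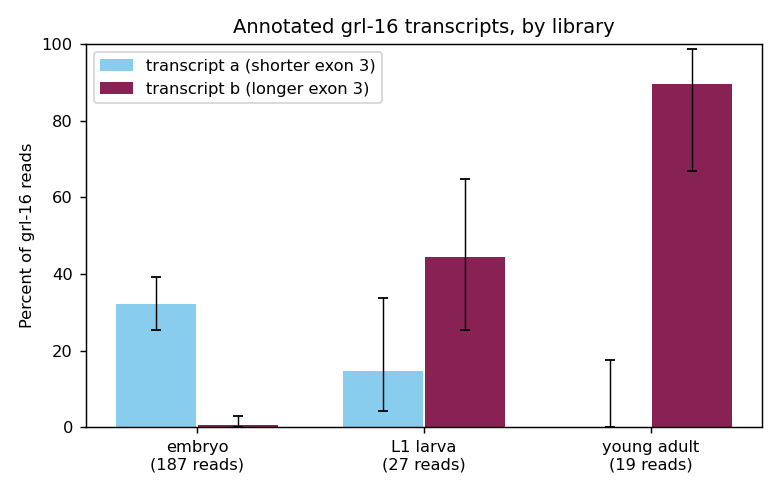
Percentage of grl-16 reads on annotated transcripts a and b in each library, with exact binomial 95% intervals and the reads of the gene under each library name. Transcript b goes from 0.535% in the embryo to 44.4% in L1 and 89.5% in the young adult; the remaining reads lie on other isoform rows.

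Other genes of the pathway were read at low counts. The hedgehog-related genes outside these families, qua-1, needed for molting, and hog-1, had 31, 6 and 0 reads and 24, 4 and 2 reads. Both were called lower than in the embryo in L1, calls lost with TMM factors, and in young adults. Of 6 other patched-like and sterol-sensing genes found of 7 listed, 0 were called in any pair. With TMM factors ncr-1, a relative of the human cholesterol transporter NPC1, with 5, 19 and 6 reads, was called higher in L1 than in embryo and lower in young adults than in L1. The best-read of this list were hmgr-1, which encodes the sterol-sensing HMG-CoA reductase, with 61, 40 and 85 reads, and scp-1, a relative of the sterol sensor SCAP, with 40, 25 and 25.

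The 6 listed genes of the Gli-type sex determination pathway had 191 embryo, 99 L1 and 245 young adult reads. The Gli relative tra-1 itself had 3, 7 and 7 reads, and tra-2, a membrane protein, had 46, 15 and 15. Of 5 with enough reads in L1 against embryo, 1 was called lower and 0 higher, and 0 with TMM factors. Between L1 and young adult, 1 of 5 was called higher, fem-3, with 19, 7 and 67 reads and a 6.04-fold higher share (2.78 to 15.6). Between embryo and young adult, 2 of 5 were called lower, or 1 lower and 1 higher with TMM factors. Over all genes, 33.0% were called lower from embryo to L1, 14.5% higher from L1 to young adult and 29.3% lower from embryo to young adult. With TMM factors the last share was 17.3%, and 19.6% were higher. With 5 genes, the counts of this list were near the shares of all genes. The best-read genes of this list, fem-1 and fem-2, had 27, 40 and 82 reads and 38, 21 and 58 reads and were called in no pair.

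Among 18 listed molting genes, 11 of 14 with enough reads were called lower and 0 higher in L1 against embryo, beside 33.0% and 13.4% of all genes. With TMM factors 6 were lower and 1 higher, beside 13.5% and 18.8%. In young adults against L1, 4 of 8 were called lower and 0 higher (14.2% and 14.5% of all genes), and against embryo 11 of 15 lower and 1 higher (29.3% and 13.2%). The best-read were let-767, a steroid dehydrogenase gene, with 338, 657 and 811 reads, dab-1, an endocytosis adaptor gene, with 291, 146 and 297, and noah-1, a cuticle protein gene, with 429, 20 and 0. Of these 3, noah-1 was read mostly in embryos, as wrt-1 was. The list includes qua-1, so its counts and those of the hedgehog-related pair share that gene.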

How the data were processed

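Native poly-A RNA of 3 libraries was sequenced on a MinION (MinKNOW 2.1, Albacore 2.0.1, per the labels' protocols), and minimap2 2.14 is named in the submitters' processing notes; no build, annotation or isoform tool is given in the sources used here. Estimated counts were deposited by the authors in 1 table, as reads per isoform row and library, unscaled, in which 1e-08 was read as 0. The coverage signal headed Cpm in the authors' per-sample tables equals those reads multiplied by 1.326721 and was used only to compare the files. The deposited symbols included 10 turned into dates, replaced from a names table. Positions and lengths were taken from release 115 of Ensembl (WBcel235).

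Estimated counts were summed per gene over isoform rows, rounded to whole reads and divided by the library total. Ratios of read shares were given exact conditional binomial (Clopper-Pearson) 95% intervals, levels exact Poisson intervals and isoform shares exact binomial intervals. PCR was not part of the protocol, and intervals and floors cover counting error only. Folds of pairs with 0 reads in 1 library were computed against 3 reads in that library, and their intervals from the 0 count. Log2 ratios had 0.5 read added to both counts. Ratios were computed over all genes, and with 1 library per stage there was no test of stages. The method was run on simulated reads drawn with counting error only, as its intervals assume. That run could not check for differences between animals or library preparations. Members were named in full with at least 100 reads over the 3 libraries (12 genes), and with 20 to 99 reads where called in at least 1 pair (12 genes); of each list the 3 best-read genes were named. The members, lists and rules were chosen with earlier results of these data known. Sequence similarity between members was not assessed, so reads shared by near-identical copies would not be seen. Gene roles follow the deposited descriptions and general knowledge.

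Alternatives were edgeR 4.0.16 TMM factors, DESeq2 1.42.0 size factors, totals without 78 ribosomal protein genes, annotated rows only, other read minimums and other folds. Calculations used Python 3.11.15, numpy 2.4.6, pandas 2.3.3, scipy 1.17.1, matplotlib 3.10.9 and R 4.3.3.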

Additional observations from a re-analysis of the deposited data

How the results depend on the processing

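No paired analysis was possible because each stage had 1 library, and no library could be left out of a pair. No call changed direction under the alternatives run. Members called lower in L1 against embryo were 14 by library totals and 9 with TMM factors, 9 with DESeq2 size factors and 6 with annotated rows only. Members called higher in that pair were 5 by totals, 0 with annotated rows only and 3 with at least 50 reads. The joint ratio of this pair, 0.420, was 0.769 with TMM factors, 0.796 with DESeq2 size factors and 0.561 with totals without ribosomal protein genes, none of them 2-fold from 1. With annotated rows only it was 0.241 and without grd-5 0.408, both further than 2-fold. In young adults against L1, the 1 member called higher became 2 at a bound of 1.5-fold and 0 at 3-fold. The 8 called lower became 0 with annotated rows only, 14 with at least 1 read, 2 with at least 50 reads and 5 at a bound of 3-fold. In young adults against embryo, the 2 called higher became 4 with DESeq2 size factors, 0 with annotated rows only and 4 with at least 1 read, and the 16 called lower became 6 with annotated rows only and 27 with at least 1 read. The joint ratio of this pair, 0.321, was 0.558 with TMM factors and 0.574 with DESeq2 size factors. Annotated rows hold 16.8% of member reads, so that alternative had fewer reads to call with. Of the 5 members called higher in L1 against embryo, grd-3, grd-10, grl-20 and grl-21 had no annotated row. With annotated rows only they could not be called in any pair, and the joint ratios left them out. The fifth, ptr-8, had 7 annotated L1 reads and 0 embryo reads, under the minimum of 20. The 2 called higher in young adults against embryo were grd-3 and grd-10. For other changes the cause was not tested. Of 62 ratios of named members, 50 kept their direction and their side of the call rule with TMM factors, 7 lost a call, 1 gained one and 4 changed sign without a call; the counts with DESeq2 size factors were equal. TMM factors moved every log2 ratio by 0.87 in L1 over embryo, 0.80 in young adult over embryo and -0.07 in young adult over L1. The tally of members by the library of their highest share, an alternative chosen after seeing the data, went from 20, 7 and 5 (embryo, L1, young adult) to 17, 10 and 5 with TMM factors.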

Other observations

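The Ensembl annotation names 83 genes of these families, and 20 of them are not among the 63 members. Of the 20, 17 are listed in the series table with 0 reads in all 3 libraries: 3 groundhog, 10 ground-like and 4 patched-related genes. Another 2 have no row there. The last, F43D9.1, is ptr-25 in Ensembl but carries its sequence name as symbol in the deposited tables. It had 66 embryo reads, 2 L1 reads and 0 young adult reads, an order like that of ptr-1 and ptr-4.

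A change of isoform like that of grl-16 was looked for among the other annotated transcripts after their values were seen. For grl-4 the annotated transcript took 3 of 24 embryo reads (12.5%, exact binomial interval 2.66 to 32.4), 1 of 21 L1 reads (4.76%, 0.120 to 23.8) and 11 of 13 young adult reads (84.6%, 54.6 to 98.1). For wrt-1, by contrast, the annotated transcript took 123 of 307 embryo reads (40.1%, 34.5 to 45.8) and 8 of 19 L1 reads (42.1%, 20.3 to 66.5). For ptc-1 the better-read annotated transcript took 8 of 54, 6 of 41 and 18 of 129 reads in embryo, L1 and young adult, or 14.8%, 14.6% and 13.95%.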
